A study of Mus musculus with 28 samples.

Results

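The question addressed here was which genes responded to loss of NRF2 differently in tumors than in the same cancer cells in culture. The cells were 3LL cells, a Lewis lung carcinoma line of C57BL/6 mice that forms tumors in immunocompetent hosts. 16 of the 28 RNA-seq libraries enter the comparison, in 4 groups of 4: KEAP1-KO cells, DKO cells, KEAP1-KO tumors and DKO tumors. In KEAP1-KO cells Keap1 carries a homozygous 1-bp insertion in exon 2, and DKO (KEAP1-NRF2 double knockout) cells were made from them by editing exon 5 of Nfe2l2, the gene of NRF2, so all 4 groups lack KEAP1 and differ in NRF2. Both lines were grown from single colonies, so each genotype may carry traits of its clone. The tumors are those of Experiment B, in which 6-week-old male albino C57BL/6 mice received KEAP1-KO cells in the left flank and DKO cells in the right, and were sampled 10 days later. Genotype and flank, and genotype and clone, therefore cannot be told apart. The labels do not say that the 4 cell libraries of a genotype came from separate cultures, and their spread may be technical.

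The NRF2 effect is the mean of the DKO libraries minus the mean of the KEAP1-KO libraries, on the deposited scale of log2(normalized count + 4), on which a row without reads has the value 2. The interaction is the NRF2 effect in tumors minus the NRF2 effect in cells, and a positive value means that the DKO-minus-KEAP1-KO difference was higher in tumors. All rows with a gene symbol were eligible, whatever their level, and 15484 of the 18509 such rows reached a minimum of 5 normalized counts in 4 or more of the 16 libraries and were tested. Libraries held 4222356 to 7524263 reads, and the tumor libraries (at most 5806517) were shallower than the cell libraries (at least 6030572). Each row is either a whole gene (a gene row) or 1 transcript, often a retained intron or another transcript without a complete coding sequence, and the kind of row is given with each gene described by library. A transcript row does not give the gene's total RNA.

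NRF2 is a transcription factor that KEAP1 normally marks for destruction. Without KEAP1 it accumulates and drives genes for glutathione synthesis, thioredoxin, detoxifying enzymes and the pentose phosphate pathway, and it also favours cystine uptake. ATF4, another transcription factor, is made when amino acids run short or the endoplasmic reticulum is stressed, and drives amino acid synthesis, transport and tRNA charging. Interferons act through STAT and IRF factors on a large set of antiviral and antigen-presentation genes. A tumor in an immunocompetent mouse also holds macrophages, fibroblasts, vessels and other host cells, whose RNA is measured together with that of the cancer cells. In bulk tumor RNA, more cells of a type and more RNA per cell cannot be told apart, nor can the RNA of host cells and of cancer cells.

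Promoters of some genes with a called interaction are shown first, as 300 bases around the RefSeq start site (250 before and 50 after, GRCm38.p6). The main groups of genes with a setting-dependent effect are classically reached through different short elements. Among the genes shown, Ifit1 and Gsta3 reached the minimum for testing only through the group where each was highest. Ifit1 and Gbp7 carry GAAA, then 2 bases of any kind, then GAAA again (either strand), as found at interferon response elements, and the matches are in capitals. In Ifit1 (chr19:34640639-34640938, + strand) they begin 104 and 85 bases before the start site, and in Gbp7 (chr3:142530086-142530385, + strand) the match begins 53 bases before it.
Ifit1: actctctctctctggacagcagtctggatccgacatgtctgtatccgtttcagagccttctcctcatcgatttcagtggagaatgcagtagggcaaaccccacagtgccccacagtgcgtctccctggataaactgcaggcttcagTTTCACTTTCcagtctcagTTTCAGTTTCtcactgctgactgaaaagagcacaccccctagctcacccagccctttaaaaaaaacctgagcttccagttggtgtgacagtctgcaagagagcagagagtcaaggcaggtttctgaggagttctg
Gbp7: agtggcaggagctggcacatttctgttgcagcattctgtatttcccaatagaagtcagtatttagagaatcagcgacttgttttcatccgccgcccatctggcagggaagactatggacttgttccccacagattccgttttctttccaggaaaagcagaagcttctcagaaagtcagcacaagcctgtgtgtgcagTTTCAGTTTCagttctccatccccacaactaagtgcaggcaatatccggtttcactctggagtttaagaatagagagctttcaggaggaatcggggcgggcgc

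Chac1 (chr2:119350992-119351291, + strand) and Trib3 (chr2:152344011-152344310, - strand) carry TGATGNAA (either strand), the core letters of elements that ATF4 binds with a C/EBP partner. The match begins 193 bases before the start site in Chac1 and at base 15 after it in Trib3.
Chac1: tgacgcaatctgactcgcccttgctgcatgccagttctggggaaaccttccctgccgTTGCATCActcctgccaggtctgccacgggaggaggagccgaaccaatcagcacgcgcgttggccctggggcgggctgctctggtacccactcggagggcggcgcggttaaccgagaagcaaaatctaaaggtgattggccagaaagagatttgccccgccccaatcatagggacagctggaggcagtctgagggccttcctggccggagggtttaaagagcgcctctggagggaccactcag
Trib3: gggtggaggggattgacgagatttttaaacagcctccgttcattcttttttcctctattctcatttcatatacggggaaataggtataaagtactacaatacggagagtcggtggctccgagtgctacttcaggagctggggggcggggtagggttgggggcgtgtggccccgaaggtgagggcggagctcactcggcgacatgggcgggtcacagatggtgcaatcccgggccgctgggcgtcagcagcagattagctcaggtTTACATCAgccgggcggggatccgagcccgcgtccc

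Gsta3 (chr1:21240335-21240634, + strand) carries TGACNNNGC (either strand), the core of the antioxidant response element that NRF2 binds, beginning 121 bases before the start site. Abcc4, an NRF2 target with a match of the same kind and an interaction of -0.93, is not shown.
Gsta3: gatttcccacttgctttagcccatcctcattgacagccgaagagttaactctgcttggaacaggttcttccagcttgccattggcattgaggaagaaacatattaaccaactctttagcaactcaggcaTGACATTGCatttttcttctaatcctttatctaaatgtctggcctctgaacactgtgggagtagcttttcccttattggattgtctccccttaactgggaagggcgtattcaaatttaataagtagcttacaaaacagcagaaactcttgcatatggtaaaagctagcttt
Among the genes with a promoter in this table, this pair of GAAA blocks was found in 24 of the 38 matched interferon-inducible genes (63.2%) and in 3.99% of all 27025 genes. TGATGNAA was found in 6 of 16 matched genes of the ATF4 list (37.5%) and in 4.51% of all genes. TGACNNNGC was found in 10 of 32 matched NRF2 targets (31.2%) and in 13.99% of all genes. These matches are letters in a window and not shown to be sites. A gene without a match can be reached through an element outside the window.

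The interaction was called (limma, adjusted p under 0.05) for 1319 of 34068 rows, a share of 3.87%. It was higher in tumors for 756 rows (2.22%) and lower for 563 (1.65%), and 5091 rows had an unadjusted p under 0.05. For comparison, the NRF2 effect was called for 10.5% of the rows in tumors and 7.11% in cells. 1099 rows were called in both, 30.6% of the tumor calls and 45.4% of the cell calls. Among those 1099, 1005 had the same sign and 94 had opposite signs. Of the called interactions 1082 had a symbol, 627 higher and 455 lower in tumors. The split between higher and lower calls moved with the scaling of the libraries: 57.3% of the calls were higher as deposited, 45.6% after median centring and 70.7% after rescaling without the 20 highest rows, which set the median interaction of all rows at 0.1015 instead of 0.023. Small interactions are therefore read relative to these shifts.

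The 1082 rows fell into patterns. 336 had an effect called in tumors only and 231 in cells only, among rows measured in both settings. 79 had effects called in opposite directions, and 116 had effects in the same direction that differed in size. 121 of the 1082 (and 1753 of the 15484 tested) passed the filter only through the group where they were highest, with fewer than 4 of the other 12 libraries at the minimum. Such a row had to differ to be tested at all, so that its call is a description. 255 were under the minimum of 5 normalized counts in cells, and 243 of these were higher in DKO tumors relative to cells. For such rows the floor of the scale limits the fall that cells can show. Their cell effects were not all near 0: Gbp3, another GTPase, had a cell effect of -1.30 beside a tumor effect of 2.63.

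**Figure D1:**
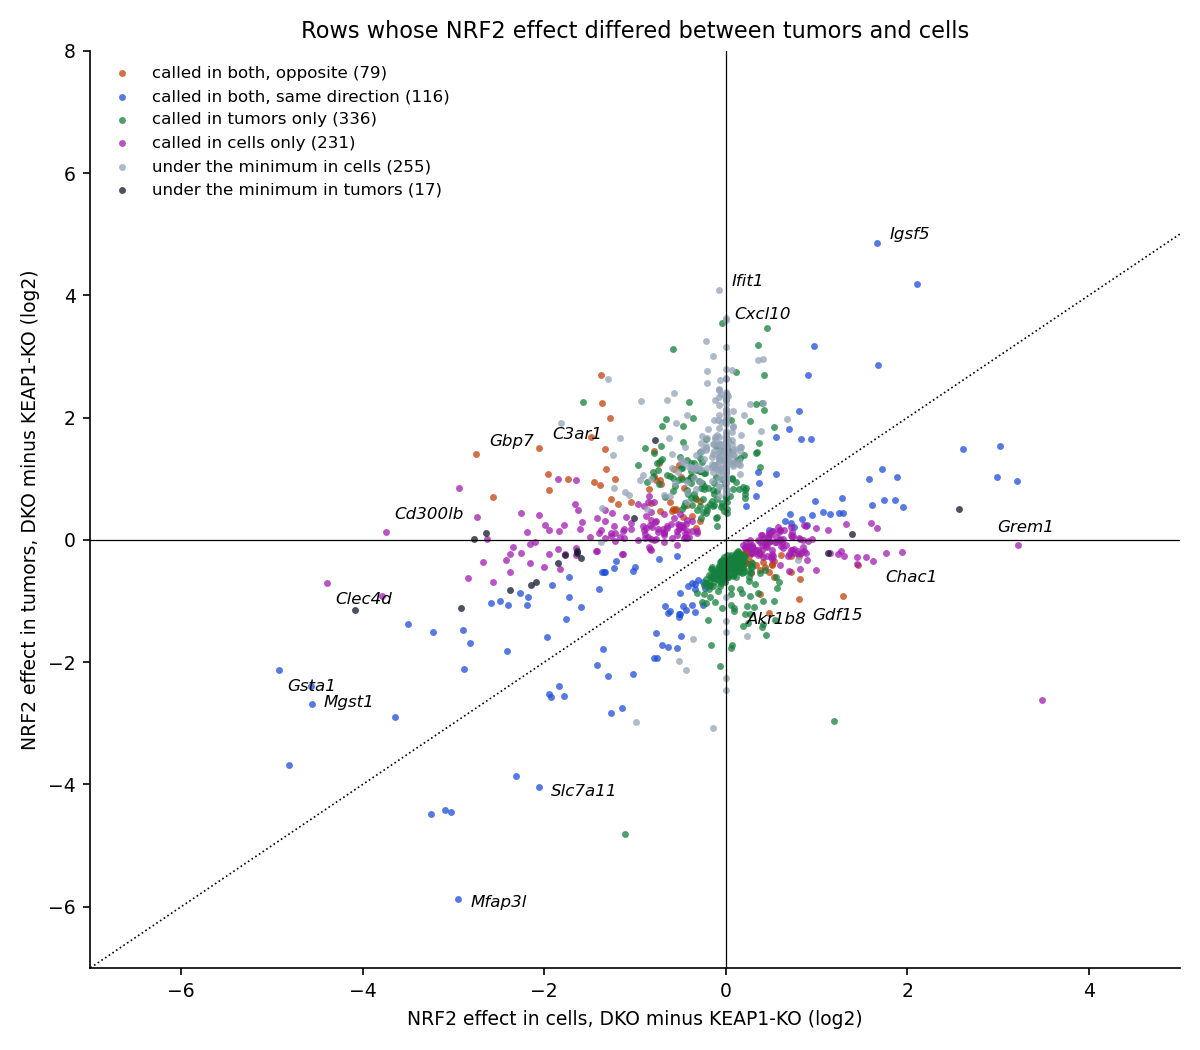
NRF2 effect in cells (horizontal axis, log2) against the NRF2 effect in tumors (vertical axis, log2) for the rows with a symbol whose interaction was called, 1 point a row, coloured by pattern. The dotted diagonal marks equal effects; the 43 rows called in neither setting and the 5 under the minimum in both are left out. Ifit1 and Cxcl10 lie on the vertical axis and Grem1 on the horizontal axis, and Gbp7 and C3ar1 lie in the quadrant of a rise in tumors and a fall in cells.

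Interferon-inducible genes rose in DKO tumors and stayed low, did not pass the test or fell in DKO cells. Of 53 tested members of 3 lists (interferon genes of the study, other interferon-stimulated genes, and the GBP and IRG families of interferon-induced GTPases), 41 had a higher NRF2 effect in tumors and none a lower one, where 2.22% of all rows were higher. By list these were 7 of 7, 23 of 33 and 11 of 13, with median interactions of 2.39, 1.65 and 2.52 against 0.01 over all symbols. 23 of the 53 were under the minimum in cells and interaction-called, 13 rose in tumors with no call in cells, and 5 had opposite effects called. 16 of the 53 passed the filter only through 1 group, 13 of them called, and of the 37 others 28 were higher and none lower. The interferon and inflammatory lists come from the study's own figures on these samples and are not independent evidence of direction.

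**Figure D2:**
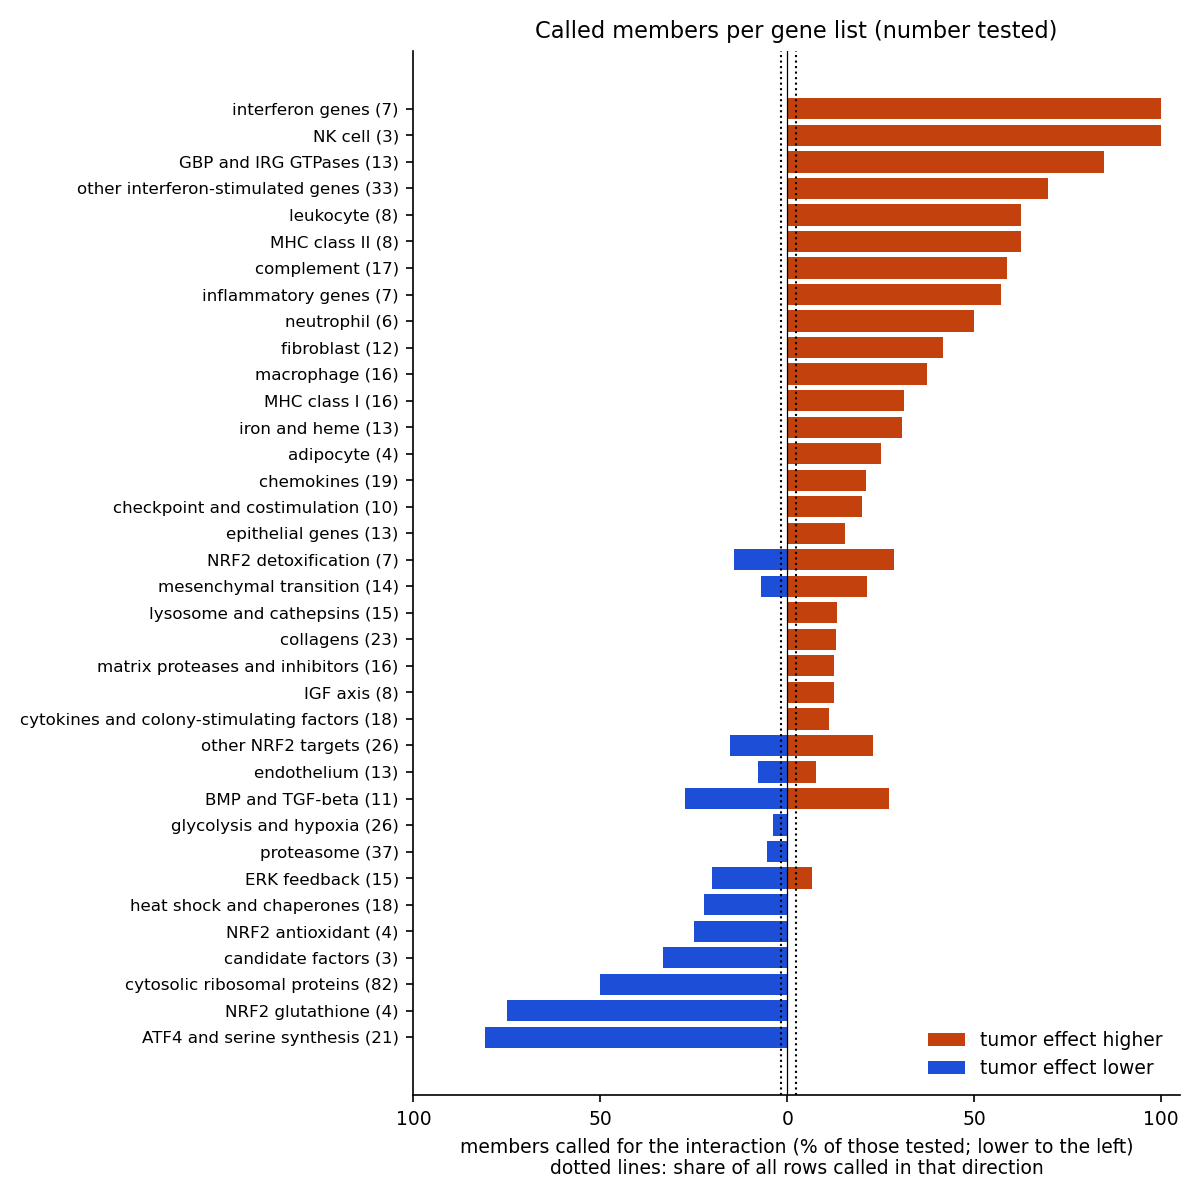
Share of the tested members of each gene list whose interaction was called, with higher tumor effects to the right and lower ones to the left (percent of members tested, number tested in brackets; lists with no call left out). Dotted lines mark the shares of all rows, 2.22% higher and 1.65% lower. Interferon lists stand at one end and the ATF4 and ribosomal protein lists at the other.

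Ifit1, which binds viral RNA that lacks a host cap, was close to absent outside DKO tumors. It passed the filter only through that group, and its gene row was at 2, 2.29, 2 and 2 in KEAP1-KO cells, at 2 in each of the 4 libraries of DKO cells, at 3.17, 2.55, 2 and 3.27 in KEAP1-KO tumors and at 7.18, 6.27, 7.73 and 6.16 in DKO tumors. All DKO tumors were above all KEAP1-KO tumors, and the cell libraries lay at or next to the floor. The NRF2 effect was 4.09 in tumors and -0.07 in cells, and the interaction of 4.16 is given as a description. Its 2 matches to the interferon element are shown above.

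Cxcl10, a chemokine that attracts activated T and NK cells, was detected in cells but did not differ there beyond its spread. Its retained intron row was at 3.26, 3.86, 2.77 and 3.36 in KEAP1-KO cells, 3.78, 3.04, 3.36 and 2.89 in DKO cells, 3.58, 3.52, 3.18 and 2.36 in KEAP1-KO tumors and 6.45, 6.29, 7.72 and 6.38 in DKO tumors. The cell groups overlapped and the tumor groups did not. The effect was 3.55 in tumors and -0.04 in cells (interaction 3.59, SE 0.51, adjusted p = 0.00068). Gbp2, an interferon-induced GTPase, was measured at 4.99, 5.28, 5.13 and 5.18 in KEAP1-KO cells, 4.78, 4.45, 4.76 and 4.28 in DKO cells, 5.08, 5.49, 5.69 and 5.59 in KEAP1-KO tumors and 8.49, 8.36, 9.06 and 8.45 in DKO tumors (a nonsense mediated decay transcript). Its tumor effect was 3.12 and its cell effect -0.58 (adjusted p = 0.058 in cells), with an interaction of 3.71 (SE 0.25, adjusted p = 5.67e-07).

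The other interferon genes of the study moved in the same way. The interaction was 3.00 for Ifit3, 2.94 for Irf7, the factor that amplifies the interferon response, 2.63 for Oas3 and 2.0 for Oas2, which make the signal that activates RNase L, 2.39 for Ifih1, a sensor of double-stranded RNA, 1.85 for Oasl1 and 1.64 for Ifi44. Usp18, a brake on interferon signalling, had an interaction of 3.16. Usp18, Oasl1 and Ifi44 passed the filter only through DKO tumors. Reads of the Oas, Gbp and Ifi20x families may be shared between near-identical copies, and their single rows are uncertain in that respect. Of the 7 inflammatory genes, Cxcl10 and Rtp4 (1.93) were called. Cxcl9 (2.35) and Ccl5 (1.72) reached the minimum in DKO tumors and in no other library, and are given as a description. The values for Il2rb (1.73, adjusted p = 0.084), Il7r (1.43, adjusted p = 0.16) and Ccl22 (0.52, adjusted p = 0.44) did not pass. These genes, too, passed the filter only through DKO tumors. Il2rb was called in 5 of 31 alternative settings, and Ccl22 in 1 of 31, with the KEAP1-KO tumors of Experiment A (1.25).

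In one group the loss of NRF2 lowered interferon-inducible genes in culture and raised them in tumors. Gbp7, another GTPase of the family, was at 6.50, 6.41, 6.36 and 6.32 in KEAP1-KO cells and at 3.56, 3.75, 3.86 and 3.44 in DKO cells, a fall of 2.75 on the log2 scale with no overlap (gene row). In KEAP1-KO tumors it was at 6.88, 6.76, 6.91 and 6.84 and in DKO tumors at 8.22, 8.15, 8.94 and 7.69, a rise of 1.40 with no overlap. Its interaction of 4.15 (SE 0.27, adjusted p = 5.67e-07) was the largest of the named genes with opposite effects. Bst2, or tetherin, which holds budding virus at the cell surface, was in its gene row at 8.04, 8.12, 7.91 and 8.24 in KEAP1-KO cells, 6.38, 6.32, 6.15 and 6.52 in DKO cells, 6.93, 6.72, 6.57 and 6.78 in KEAP1-KO tumors and 7.58, 7.43, 8.44 and 7.51 in DKO tumors. It fell by 1.73 in cells and rose by 0.99 in tumors (interaction 2.72, SE 0.25, adjusted p = 1.4e-05; named after its values were seen). Igtp, an immunity-related GTPase, was in its gene row at 4.37, 3.94, 3.94 and 3.59 in KEAP1-KO cells, 2.79, 3.04, 2 and 2.89 in DKO cells, 4.0, 4.38, 4.34 and 4.85 in KEAP1-KO tumors and 6.45, 6.04, 7.24 and 5.79 in DKO tumors, with effects of -1.28 and 1.99 (interaction 3.27, adjusted p = 0.00049). Cmpk2, Ifi209 and Ifi204 had interactions of 4.07, 3.61 and 3.17 with the same signs. DKO tumor replicate 3 was the highest of its group for each of the 6 genes given by library so far. Without it 33 of the interferon-inducible members were called, and 31 without DKO tumor replicate 1.

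**Figure D3:**
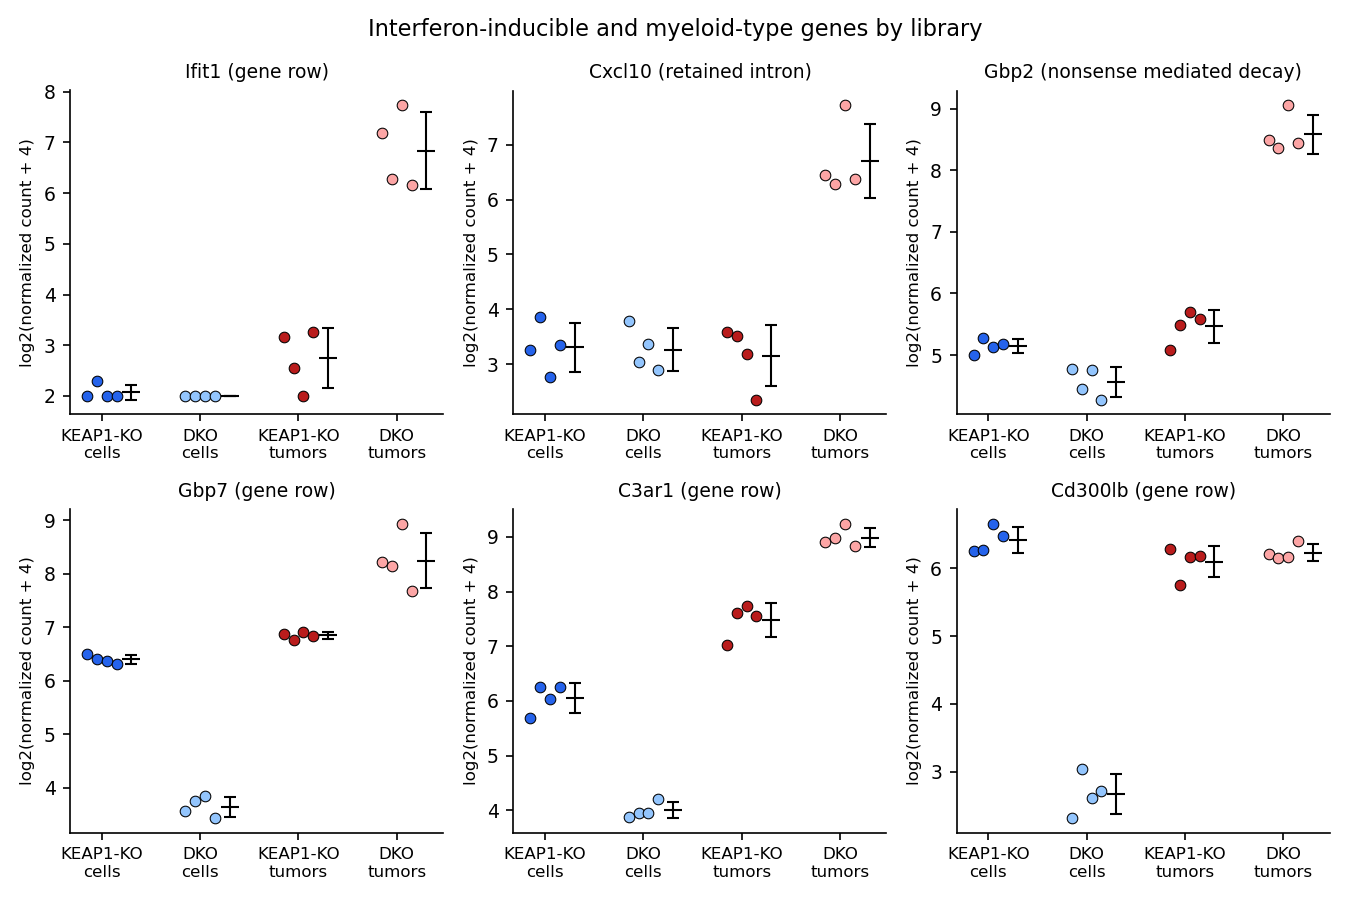
Values of 6 genes in the 16 libraries on the deposited log2(normalized count + 4) scale, 1 point a library, with the group mean and SD (n = 4) beside the points. Ifit1, Cxcl10 and Gbp2 are high in DKO tumors only, Gbp7 and C3ar1 fall in DKO cells and rise in DKO tumors, and Cd300lb falls in DKO cells with overlapping tumor groups. Vertical axes differ between panels and do not start at 0.

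Genes of antigen presentation shared this direction in part. 5 of 16 tested MHC class I genes and 5 of 8 MHC class II genes had a higher effect in tumors, with none lower. Over all rows 2.22% were higher. H2-T23, a nonclassical class I molecule, fell by 1.22 in cells and rose by 1.0 in tumors, and Tap2, a subunit of the peptide transporter, fell by 0.73 and rose by 0.48. Tapbp, which loads peptides onto class I, rose by 1.14 in tumors with a cell effect of -0.33. Ciita, the master regulator of class II genes (which passed the filter only through DKO tumors), Cd74 and H2-Ab1 were under the minimum in cells and rose by 1.64, 1.43 and 1.46 in tumors. Among complement genes 10 of 17 were higher, 2 of them (Cfb and Cfd) tested only through DKO tumors, and the others included C3 (interaction 2.49, with a cell effect of -1.32 and a tumor effect of 1.16) and C2 (1.81).

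C3ar1, the receptor for the C3a fragment of complement, is expressed by myeloid cells and was measured in the cultured cancer cells as well. Its gene row was at 5.68, 6.26, 6.03 and 6.26 in KEAP1-KO cells, 3.88, 3.96, 3.96 and 4.21 in DKO cells, 7.03, 7.60, 7.73 and 7.56 in KEAP1-KO tumors and 8.90, 8.97, 9.24 and 8.84 in DKO tumors. The groups overlapped in neither setting. The fall of 2.05 in cells and the rise of 1.51 in tumors gave an interaction of 3.56 (SE 0.23, adjusted p = 5.67e-07). Cd68, a lysosomal protein used as a macrophage marker, was measured by a processed transcript, which does not give its total RNA, at 6.74, 6.87, 6.91 and 6.82 in KEAP1-KO cells, 5.55, 5.52, 5.52 and 5.70 in DKO cells, 8.83, 8.87, 8.58 and 8.83 in KEAP1-KO tumors and 9.19, 9.51, 9.56 and 9.50 in DKO tumors, with effects of -1.26 and 0.66. For both rows the fall in culture was measured without host cells, while the tumor values also hold host RNA.

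Interactions were called for markers of some host cells and not for those of others. Ptprc, the gene of the pan-leukocyte phosphatase CD45, was measured by a retained intron row at 2.30, 2, 2.56 and 2.53 in KEAP1-KO cells, at 2 in each DKO cell library, at 7.22, 7.69, 7.29 and 7.58 in KEAP1-KO tumors and at 8.62, 8.44, 8.64 and 8.15 in DKO tumors (interaction 1.37, SE 0.23, adjusted p = 0.0026). Its tumor groups did not overlap and its cell values lay next to the floor. 5 of 8 leukocyte markers, 6 of 16 macrophage markers and 3 of 6 neutrophil markers tested (1 of the 3, Mmp8, through DKO tumors only) were higher. The share of all rows that were higher was 2.22%. Of 9 NK cell markers 3 were tested (Gzmb, Klrk1 and Prf1, the cytotoxic granule protease, an activating receptor and perforin). Their summed normalized counts were 0 to 0.9 in cells, 3.0 to 12.1 in KEAP1-KO tumors and 33.3 to 65.6 in DKO tumors. They passed the filter mainly through the DKO tumors, and no count of calls is read from them. Of the T cell, B cell and dendritic cell markers 0 of 3, 0 of 3 and 0 of 6 were called by limma (1, 1 and 2 higher and 0, 0 and 1 lower at an unadjusted p under 0.05). For the tumor effect alone 1, 1 and 1 of them were called higher, and 1 dendritic cell marker lower. T cell markers summed to 14.0 to 26.4 in KEAP1-KO and 26.4 to 36.2 in DKO tumors, and the sums for B cells and dendritic cells overlapped. The summed normalized counts of the 8 leukocyte markers were 1386 to 1769 in KEAP1-KO tumors and 2222 to 3556 in DKO tumors, against 10.5 to 30.4 in cells. For the 16 macrophage markers they were 6707 to 7700 and 9684 to 12934, against 204.3 to 256.2 in cells. The summed counts of the 6 neutrophil markers overlapped between the tumor groups, at 336.2 to 1291 (median 827.3) in KEAP1-KO tumors and 550.1 to 849.3 (median 708.4) in DKO tumors. The part of host cells in the tumor effects of interferon, complement and MHC genes was not tested.

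Ccr2, the receptor that brings monocytes into tissue, illustrates the larger tumor effects of that kind (gene row, named after its values were seen). It was at 2.30, 2, 2 and 2.29 in KEAP1-KO cells, 2, 2.34, 2 and 2 in DKO cells, 5.78, 6.13, 6.31 and 6.77 in KEAP1-KO tumors and 8.96, 8.96, 9.07 and 8.43 in DKO tumors, an interaction of 2.67 (SE 0.29, adjusted p = 6.5e-05). No tumor value overlapped between genotypes. Among the chemokines beyond the study's inflammatory genes (which hold Cxcl9, Cxcl10 and Ccl5, given above) 4 of 19 were called, all higher, beside 2.22% of all rows. These were Ccl7, which fell by 0.73 in cells and rose by 0.98 in tumors, Ccl2 (interaction 1.71), Ccl9 (1.71) and Ccl6 (0.77). Il1b, a cytokine of activated myeloid cells, had an interaction of 1.78.

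Fibroblast markers were also called, 5 of 12 higher and none lower, beside 2.22% of all rows higher. Their summed counts were 3772 to 4700 in KEAP1-KO tumors and 12513 to 16852 in DKO tumors, against 619.5 to 1062 in cells. The called members were Col3a1, Dcn, Lum, Dpt and Pdgfrb. Col3a1, a fibrillar collagen, was measured by a retained intron row at 8.25, 8.45, 8.36 and 8.31 in KEAP1-KO cells, 8.76, 8.68, 8.72 and 8.81 in DKO cells, 9.98, 10.21, 9.63 and 9.61 in KEAP1-KO tumors and 12.15, 11.77, 12.54 and 11.93 in DKO tumors. The effect was 2.24 in tumors and 0.40 in cells (adjusted p = 0.14 in cells), with an interaction of 1.84 (SE 0.21, adjusted p = 0.0001). Dcn, the matrix proteoglycan decorin, rose by 1.67 in cells and by 2.85 in tumors (retained intron, interaction 1.18, adjusted p = 0.039). Lum and Dpt, matrix proteins of fibroblasts, had interactions of 1.82 and 1.74, and Pdgfrb, a receptor of fibroblasts and pericytes, fell by 1.65 in cells with a tumor effect of -0.24 (interaction 1.40). Of the 13 endothelial markers 1 was higher (Vwf) and 1 lower (Cdh5), beside 2.22% and 1.65% of all rows. Both calls came through the cells: Vwf fell by 1.95 and Cdh5 rose by 1.30 in DKO cells. For the tumor effect alone 3 of the 13 were called lower and none higher. Their summed counts were 1799.5 to 2363.2 in KEAP1-KO tumors and 1587.3 to 1776.1 in DKO tumors, without overlap.

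ATF4-linked genes went the other way. Of 21 tested members of the list of ATF4, its targets and serine synthesis, 17 had a lower NRF2 effect in tumors and none a higher one, where 1.65% of all rows were lower. 14 members rose in DKO cells and 1 fell, while in tumors 7 fell and 1 rose, and the median effect was 0.79 in cells and -0.27 in tumors. 9 of the 17 were called in cells only, 4 in both settings with opposite signs, 2 in tumors only, 1 in the same direction in both and 1 in neither. The count of lower members was 16 or 17 under each of the 3 other scalings, and the median interaction lay between -1.04 and -0.84.

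Chac1, an enzyme that breaks down glutathione and a common readout of ATF4, was at 6.61, 6.80, 6.62 and 6.52 in KEAP1-KO cells, 8.35, 8.29, 8.15 and 8.25 in DKO cells, 5.70, 6.29, 6.81 and 6.64 in KEAP1-KO tumors and 5.64, 6.06, 5.94 and 6.44 in DKO tumors (gene row). The cell groups were apart by 1.62 and the tumor groups overlapped (tumor effect -0.34, adjusted p = 0.37). Its interaction was -1.96 (SE 0.28, adjusted p = 0.00081). Trib3, a pseudokinase that dampens ATF4, was at 8.75, 8.89, 8.76 and 9.01 in KEAP1-KO cells, 10.65, 10.57, 10.62 and 10.63 in DKO cells, 6.55, 7.03, 7.11 and 7.30 in KEAP1-KO tumors and 6.39, 7.16, 6.35 and 7.25 in DKO tumors (processed transcript, interaction -1.97, SE 0.27). Sesn2, which restrains mTORC1 when leucine is scarce, was at 9.19, 9.09, 9.23 and 9.16 in KEAP1-KO cells, 10.61, 10.41, 10.68 and 10.75 in DKO cells, 8.80, 8.76, 9.13 and 9.16 in KEAP1-KO tumors and 8.63, 8.75, 8.52 and 8.84 in DKO tumors (gene row, interaction -1.72, SE 0.14, adjusted p = 4.7e-06). In each of these 3 genes the DKO cells stood above the 12 other libraries.

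Atf4 itself changed in opposite directions. Its retained intron row was at 12.16, 12.26, 12.22 and 12.22 in KEAP1-KO cells, 12.61, 12.61, 12.69 and 12.67 in DKO cells, 10.76, 10.98, 11.11 and 11.02 in KEAP1-KO tumors and 10.34, 10.61, 10.36 and 10.77 in DKO tumors. It rose by 0.43 in cells, where the groups did not overlap, and fell by 0.45 in tumors, where the highest DKO value passed the lowest KEAP1-KO value (interaction -0.88, SE 0.12, adjusted p = 0.00061). Asns, asparagine synthetase, was at 11.48, 11.66, 11.54 and 11.69 in KEAP1-KO cells, 12.45, 12.41, 12.36 and 12.39 in DKO cells, 9.81, 9.95, 10.01 and 9.91 in KEAP1-KO tumors and 9.48, 9.73, 9.68 and 9.75 in DKO tumors (processed transcript, interaction -1.07, SE 0.09). Psat1, the aminotransferase of serine synthesis, rose by 0.51 in cells and fell by 0.41 in tumors, and Slc3a2, the heavy chain shared by several amino acid transporters, rose by 0.72 and fell by 0.27. Ddit3 (CHOP), Psph, Shmt2, Slc7a3 and Slc7a5 rose in cells by 0.89, 0.95, 0.79, 0.89 and 1.12, with no call in tumors. Aldh1l2, a mitochondrial folate enzyme, rose by 1.55 in cells (interaction -1.83).

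Gdf15, a stress-induced cytokine that lowers appetite, followed the same course outside the list. Its gene row was at 6.48, 6.40, 6.13 and 6.40 in KEAP1-KO cells, 7.18, 7.07, 7.08 and 7.33 in DKO cells, 5.42, 5.97, 5.85 and 5.62 in KEAP1-KO tumors and 4.63, 4.68, 4.74 and 4.97 in DKO tumors. It rose by 0.81 in cells and fell by 0.96 in tumors without overlap in either (interaction -1.77, SE 0.19, adjusted p = 5.6e-05). Slc1a4, a transporter of alanine, serine and cysteine, fell in both settings, by 0.76 in cells and by 1.93 in tumors. Atf3, Mthfd2, Slc7a1 and Nupr1 were the members whose interaction was not called, with values of 0.13, 0.45, 0.34 and -0.70.

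**Figure D4:**
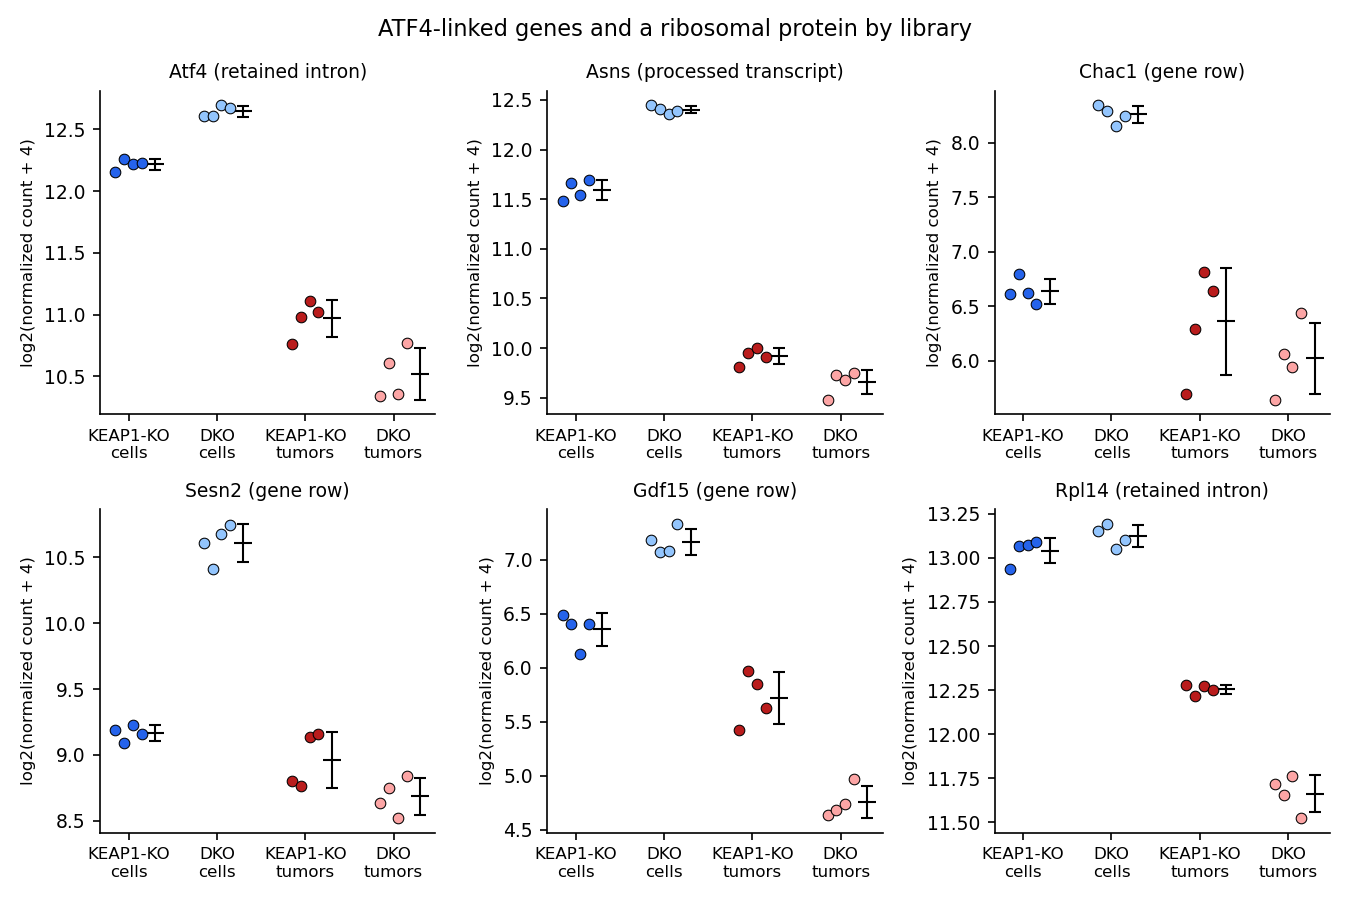
Values of 5 ATF4-linked genes and of Rpl14 in the 16 libraries on the deposited log2(normalized count + 4) scale, 1 point a library, with the group mean and SD (n = 4) beside the points. Chac1, Sesn2 and Asns are highest in DKO cells, and Atf4 and Gdf15 rise in DKO cells and fall in DKO tumors. Rpl14 is lower in DKO than in KEAP1-KO tumors, with overlapping cell groups, and lower in both tumor groups than in cells. Vertical axes differ between panels and do not start at 0.

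Ribosomal protein rows were lower in DKO tumors, with a median effect close to 0 in cells. Of 82 tested rows of cytosolic ribosomal proteins, 41 had a lower effect in tumors and none a higher one, where 1.65% of all rows were lower. 49 of the 82 fell in tumors, where 1888 of all 34068 rows fell. In cells 4 rose and none fell, and the median effects were -0.47 in tumors and -0.05 in cells. Only 10 of the 82 are gene rows and 42 are retained introns, so that most rows do not give the level of the mature mRNA. Rpl14 (retained intron) was at 12.94, 13.07, 13.07 and 13.09 in KEAP1-KO cells, 13.15, 13.19, 13.05 and 13.10 in DKO cells, 12.28, 12.22, 12.27 and 12.25 in KEAP1-KO tumors and 11.72, 11.65, 11.76 and 11.52 in DKO tumors, an interaction of -0.67 (SE 0.07, adjusted p = 6e-05). The cell groups overlapped and the tumor groups did not. The interactions are small and depend on the analysis: 23 rows were called after quantile normalization and 14 without a trend in the variance. Higher summed markers of leukocytes and fibroblasts in DKO tumors, given above, moved with this fall, and their part was not tested. Among chaperones 4 of 18 were lower and none higher, beside 1.65% of all rows lower. The median interaction of that list was 0.018, with 3 higher and 4 lower at an unadjusted p under 0.05. Its called members included Hsp90ab1 (-0.41), Hspd1 (-0.42) and Hspa8 (-0.29), the cytosolic and mitochondrial folding machines.

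Cd300lb, Clec4d, Slc11a1 and Csf1, single genes with known roles in myeloid cells, fell in DKO cells and did not pass the test in tumors. They stand for no list, and the marker lists cannot show such a fall, since 3 of 16 macrophage, 1 of 8 leukocyte and 1 of 6 neutrophil markers reached the minimum in cells. Cd300lb, an activating receptor of myeloid cells, was at 6.26, 6.27, 6.66 and 6.48 in KEAP1-KO cells and at 2.32, 3.04, 2.61 and 2.71 in DKO cells (gene row). In tumors it was at 6.28, 5.76, 6.17 and 6.19 in the KEAP1-KO and at 6.21, 6.15, 6.17 and 6.41 in the DKO group, which overlapped. The fall of 3.75 in cells and the tumor effect of 0.13 gave an interaction of 3.88 (SE 0.23, adjusted p = 5.67e-07).

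Clec4d, a C-type lectin that senses mycobacterial and fungal glycolipids, was at 6.69, 6.94, 6.78 and 6.90 in KEAP1-KO cells, 2, 2, 3.21 and 2.51 in DKO cells, 6.0, 6.38, 7.02 and 6.10 in KEAP1-KO tumors and 5.55, 5.87, 5.67 and 5.60 in DKO tumors (nonsense mediated decay transcript). Its tumor effect of -0.70 did not pass (adjusted p = 0.10) although the groups did not overlap, and its interaction was 3.70 (SE 0.36). Slc11a1, a metal transporter of phagosomes, was at 4.61, 4.92, 5.41 and 4.39 in KEAP1-KO cells, 2.32, 2.61, 2.61 and 2.28 in DKO cells, 7.35, 7.71, 7.50 and 7.41 in KEAP1-KO tumors and 7.15, 6.84, 7.06 and 6.80 in DKO tumors (retained intron, interaction 1.85, SE 0.27, adjusted p = 0.00081). Its tumor groups did not overlap either, and its tumor effect of -0.53 did not pass (adjusted p = 0.093). Csf1, the growth factor of macrophages, was at 5.60, 5.97, 6.09 and 6.21 in KEAP1-KO cells, 4.62, 4.76, 4.58 and 4.21 in DKO cells, 6.71, 6.67, 6.46 and 6.94 in KEAP1-KO tumors and 6.54, 6.60, 6.65 and 6.26 in DKO tumors (retained intron, interaction 1.24, SE 0.22). Over the 122 rows higher for the interaction and called in cells only, KEAP1-KO tumors stood above KEAP1-KO cells by a median of 0.40. That median was 0.08 over all rows with a symbol, and -0.28 over the 109 rows lower for the interaction and called in cells only. Whether the tumor values of such genes come from cancer cells or from host cells cannot be told apart.

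Among genes called in cells only, Grem1, a secreted antagonist of BMPs, had one of the lowest interactions. Its gene row was at 8.56, 8.80, 8.74 and 8.73 in KEAP1-KO cells, 11.92, 11.91, 11.94 and 11.94 in DKO cells, 10.92, 10.91, 11.25 and 11.42 in KEAP1-KO tumors and 10.85, 11.20, 10.73 and 11.39 in DKO tumors. The cell effect of 3.22 and the tumor effect of -0.08 (adjusted p = 0.81) gave an interaction of -3.30 (SE 0.19, adjusted p = 4.67e-07). Id3, a target of BMP signalling, fell by 1.65 in cells, and Id2 fell by 0.46 in cells and rose by 0.85 in tumors. Snai2, a factor of the mesenchymal transition, rose in both, by 3.02 in cells and 1.54 in tumors. Rgs16, which switches off G protein signals, rose by 3.21 in cells and 0.96 in tumors.

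Most NRF2 targets fell in both settings. All 4 antioxidant, 4 glutathione and 7 detoxification genes tested fell in tumors and in cells, and of the 26 other targets 14 fell in tumors and 19 in cells, with none called higher. Nqo1, the quinone reductase that reports NRF2 activity, was in its gene row at 12.31, 12.54, 12.44 and 12.53 in KEAP1-KO cells, 6.86, 6.78, 6.79 and 6.65 in DKO cells, 11.93, 12.40, 12.37 and 12.23 in KEAP1-KO tumors and 6.17, 6.06, 6.25 and 5.25 in DKO tumors. It fell by 5.68 in cells and by 6.30 in tumors, and the difference of -0.62 (SE 0.24) did not pass (adjusted p = 0.21). The edited genes are no check of the labels here, since small edits need not lower RNA: the gene row of Keap1 was between 7.24 and 7.65 in all 16 libraries, and the processed transcript row of Nfe2l2 between 4.58 and 5.72. Gclm, Srxn1, Prdx1, Gstm1 and Gsta4 fell in both settings with interactions of -0.18, 0.33, -0.18, -0.02 and 0.53, none called. After quantile normalization Nqo1 (-1.40) and Gstm1 (-0.94) were called, and so was Srxn1 in the other direction (0.43, and 0.43 after rescaling without the 20 highest rows). Nqo1 was also called with the KEAP1-KO tumors of Experiment A (-0.79). Srxn1 was called without KEAP1-KO tumor replicate 2 (0.42), and Prdx6 without DKO tumor replicate 4 (0.51). Gsta4 was called with a pseudocount of 16 (0.81), and a p that misses the threshold does not show that these effects were equal.

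A larger fall in tumors was called for 3 of the 4 glutathione genes (Slc7a11, Gclc and Gsr, not Gclm) and for 1 of the 4 antioxidant genes (Txnrd1, not Prdx1, Prdx6 or Srxn1). Slc7a11, the cystine transporter xCT, was at 9.69, 9.75, 9.79 and 9.78 in KEAP1-KO cells, 7.74, 7.71, 7.63 and 7.68 in DKO cells, 9.05, 9.83, 10.12 and 9.66 in KEAP1-KO tumors and 5.37, 5.74, 5.37 and 5.99 in DKO tumors (retained intron). It fell by 2.06 in cells and by 4.05 in tumors (interaction -1.99, SE 0.25, adjusted p = 0.00027). The values of KEAP1-KO cells lay within the range of the KEAP1-KO tumors, and the lowest values were those of DKO tumors. ATF4 is also known to drive Slc7a11. Txnrd1, thioredoxin reductase, was at 13.39, 13.48, 13.48 and 13.55 in KEAP1-KO cells, 11.41, 11.50, 11.60 and 11.68 in DKO cells, 12.93, 13.16, 13.02 and 13.03 in KEAP1-KO tumors and 10.40, 10.53, 10.56 and 10.35 in DKO tumors (retained intron, interaction -0.65, SE 0.09). Gclc, the catalytic subunit of glutathione synthesis, and Gsr, glutathione reductase, had interactions of -0.57 and -0.43, G6pdx and Txn1 of -0.55 and -0.42, and Gstm2, a glutathione transferase, of -1.44. Serpinb9e, a serpin among the study's candidate factors, fell by 2.31 in cells and by 3.87 in tumors, while the other two candidates, Il7 (interaction 0.30, adjusted p = 0.70) and Slpi (0.03, adjusted p = 0.98), were not called.

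Akr1b8, an aldo-keto reductase, fell in tumors with no call in cells. Its processed transcript row was at 9.51, 9.53, 9.56 and 9.46 in KEAP1-KO cells, 9.65, 9.59, 9.67 and 9.51 in DKO cells, 10.04, 10.30, 10.13 and 10.14 in KEAP1-KO tumors and 8.99, 8.96, 8.94 and 9.06 in DKO tumors. The effects were 0.09 in cells (adjusted p = 0.45) and -1.17 in tumors (interaction -1.26, SE 0.08, adjusted p = 5.67e-07).

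A larger fall in cells was called for Gsta1 of the alpha-class glutathione transferases, not for Gsta4, and for 4 of 13 genes of the iron and heme list. Interactions were higher for 2.22% of all rows. Gsta1 was at 7.04, 6.87, 6.85 and 7.27 in KEAP1-KO cells, 2, 2, 2.34 and 2 in DKO cells, 4.0, 4.86, 3.92 and 4.39 in KEAP1-KO tumors and 2.63, 2, 2 and 2 in DKO tumors (gene row, interaction 2.79, SE 0.33, adjusted p = 0.00014). The KEAP1-KO tumors began lower and both DKO groups lay at or next to the floor, which limits the fall that tumors can show. Gsta2 (interaction 2.94) and Gsta3 (1.46, with a tumor effect of -0.18 that did not pass) passed the filter only through KEAP1-KO cells, where they were highest, and are given as a description, and reads of these paralogs may be shared. Osgin1, an oxidative stress-induced growth inhibitor, is not near the floor: it was at 9.70, 9.75, 9.59 and 9.74 in KEAP1-KO cells, 7.33, 7.41, 7.46 and 7.52 in DKO cells, 7.96, 8.54, 8.35 and 8.46 in KEAP1-KO tumors and 7.46, 7.19, 7.17 and 8.01 in DKO tumors (processed transcript, interaction 1.40, SE 0.22, adjusted p = 0.0017). The called members of the iron and heme list were Hmox1, heme oxygenase (interaction 0.89, with a tumor effect of -0.24 that did not pass), Fth1, the ferritin heavy chain (0.39), Tfrc and Slc11a1, and none was lower. Its count was 2 of 13 after median centring, and Ftl1, the ferritin light chain (0.73, adjusted p = 0.71), did not pass. Outside that list, Blvrb, biliverdin reductase B, had an interaction of 0.74, and that of Slc48a1, a heme transporter, did not pass (0.91, adjusted p = 0.77). The call for Hmox1 was lost in 13 of the 16 fits that left out 1 library, where its interaction was between 0.72 and 1.01. Tfrc, the transferrin receptor, was at 12.22, 12.49, 12.39 and 12.43 in KEAP1-KO cells, 11.45, 11.44, 11.33 and 11.46 in DKO cells, 10.87, 11.17, 10.97 and 11.21 in KEAP1-KO tumors and 11.04, 11.14, 11.33 and 10.68 in DKO tumors, a fall of 0.97 in cells with overlapping tumor groups (retained intron, interaction 0.96, adjusted p = 0.0022). Over the NRF2 lists, beside 2.22% of all rows higher and 1.65% lower, the antioxidant genes had 1 lower call of 4 and the glutathione genes 3 lower of 4. The detoxification genes had 2 higher and 1 lower of 7, and the other targets 6 higher and 4 lower of 26. This balance moved with the scaling: after quantile normalization the detoxification genes had 2 higher and 3 lower and the other targets 3 higher and 5 lower, and after median centring the other targets had 3 higher and 4 lower.

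**Figure D5:**
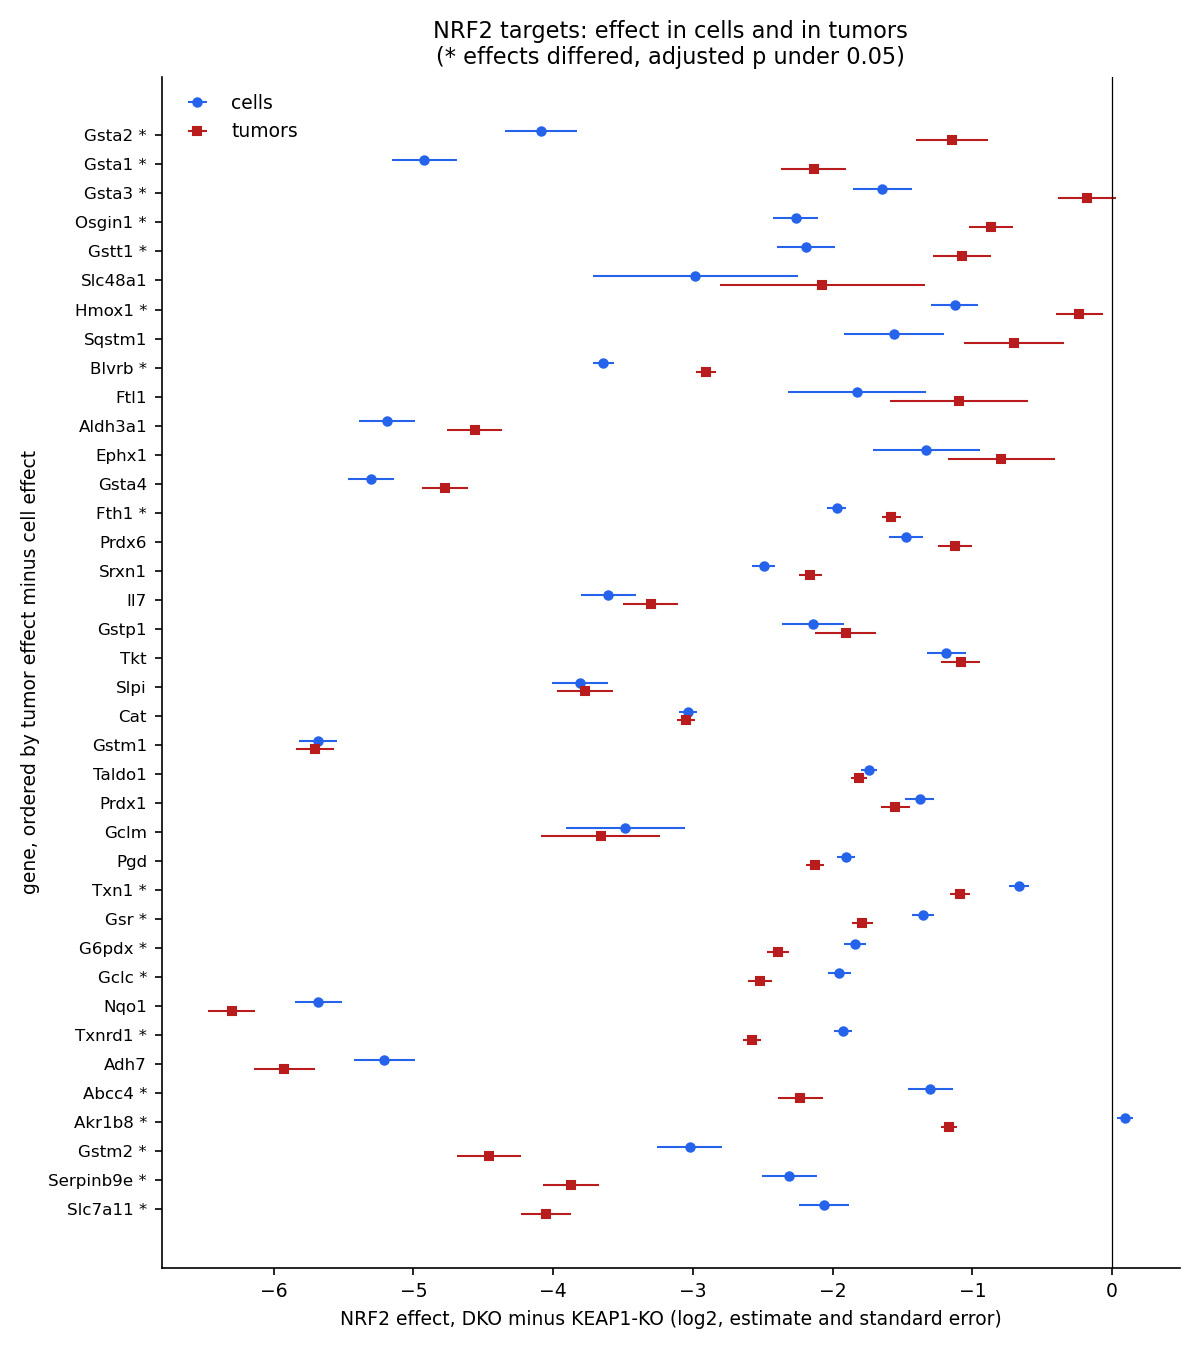
NRF2 effect in cells (circles) and in tumors (squares) on the log2 scale, for NRF2 targets and candidate factors called in at least 1 comparison, ordered by tumor effect minus cell effect. Standard errors rest on 1 spread per gene shared by both settings, and do not show the spread of each setting. Asterisks mark called interactions. Most genes fall in both settings, Slc7a11 falls further in tumors (-4.05 against -2.06) and Gsta1 further in cells (-4.92 against -2.14).

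Some genes outside the lists changed in the same direction by very different amounts. Mfap3l, a kinase-like membrane protein, was at 8.89, 9.01, 9.04 and 8.93 in KEAP1-KO cells, 6.03, 6.02, 5.87 and 6.16 in DKO cells, 10.65, 10.91, 11.15 and 11.09 in KEAP1-KO tumors and 4.92, 5.53, 4.86 and 5.01 in DKO tumors. It fell by 2.95 in cells and by 5.87 in tumors (gene row, interaction -2.92, SE 0.19). Igsf5, a junctional adhesion protein of epithelia, was at 4.61, 4.48, 4.45 and 4.57 in KEAP1-KO cells, 6.08, 6.30, 6.13 and 6.27 in DKO cells, 2, 2.95, 3.18 and 2.36 in KEAP1-KO tumors and 7.69, 6.77, 7.39 and 8.06 in DKO tumors, a rise of 1.67 in cells and of 4.86 in tumors (gene row, interaction 3.19, SE 0.37). Tmprss11b, a serine protease of squamous epithelia, rose by 2.11 and 4.19. In Mfap3l and Igsf5 the tumors hold both the highest and the lowest of the 16 values.

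Other lists had no called interaction. For proliferation genes 0 of 23 were called by limma (0 higher and 4 lower at an unadjusted p under 0.05), for cholesterol and fatty acid synthesis 0 of 22 (4 higher and 1 lower unadjusted), and for mitochondrially encoded genes 0 of 15 (1 higher and 5 lower unadjusted).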

How the data were processed

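According to the methods of the study, ribosomal RNA was removed, strand-specific libraries were sequenced as paired ends, and reads were quantified with Salmon against GENCODE mouse transcripts before analysis in iDEP. The methods speak of TPM, but the values as deposited are log2 values of a normalized count with 4 added. No library has a value under 2, which is a count of 0, and reversing this transform returned whole numbers of reads for the low rows, from which each depth was read. The labels' extraction protocol names liver, and the study's description of cells and tumors was used instead.

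The 16 libraries of the 4 groups entered 1 fit with limma 3.58.1 in R 4.3.3 (lmFit, contrasts.fit, eBayes with a trend), without a count model, since the column is on a log scale. The fit shares 1 estimate of the spread per row, so the SE of an effect is the same in cells and in tumors. A row was tested if 4 or more libraries had 5 or more normalized counts (34068 of 43143), p-values were adjusted by Benjamini-Hochberg over all of them, and the threshold was 0.05. In a test on simulated data, changes were placed in 200 rows, none of them with low counts, and cells and tumors were given the same spread. Among these the interaction, fitted over 34068 rows, recovered 37% of changes of 1 and 95% of changes of 2 on the log2 scale. Recovery in rows near the floor was not measured. Replicate numbers in the labels are not stated to pair mice.

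For each symbol the row with the highest mean was described. By rule the largest interactions of each pattern, up to 4 called members of each list and the genes that the study names were picked. Not all picked genes are described. Among those left out are Zfp608 (interaction -6.09), Ubl3 (-4.15), Dmtf1 (3.83) and Sp100 (3.78). Further genes, among them Atf4, Asns, Psat1 and the other ATF4-linked genes beyond Trib3, Chac1, Aldh1l2 and Sesn2, were chosen after their values were seen. The members and lists were chosen with earlier results of these data known. Promoters were taken from RefSeq (GRCm38.p6), and names from GENCODE M21. Alternatives were other pseudocounts (0.4 and 16), filters, scalings, thresholds and variance models, all 28 libraries in the fit, the KEAP1-KO tumors of Experiment A, summed rows, the replicate number as a block and each library left out in turn.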

Additional observations from a re-analysis of the deposited data

Results flagged for a closer look

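The NRF2 effect differed between tumors and cells for 1319 rows, by the test of the difference itself. Among the genes given by library with effects called in opposite directions, the difference was 4.15 for Gbp7, 3.56 for C3ar1, 3.27 for Igtp, 2.72 for Bst2 and 1.92 for Cd68. It was -1.77 for Gdf15, -1.07 for Asns, -0.88 for Atf4 and -0.84 for Gars.

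Of 146 groups of 4 libraries examined over the 37 genes with values by library in the text or examined beside them, 14 held 1 library far from the other three, where chance alone sets about 1 in 20 groups apart. DKO tumor replicate 3 stood above its group for Cxcl10 (7.72, next 6.45) and Bst2 (8.44, next 7.58). DKO tumor replicate 1 stood below its group for Cd68 (9.19) and above it for Gsta1 (2.63, the others at 2), and DKO tumor replicate 2 above it for Gars (10.97, next 10.81). KEAP1-KO tumor replicate 3 was below its group for Cd68 (8.58) and Keap1 (7.30). Among cells, replicate 3 of the DKO cells stood apart for Keap1 (7.47), Gsta1 (2.34) and Tfrc (11.33), replicate 2 of the DKO cells for Naip1 (3.21) and Ccr2 (2.34), replicate 1 of the KEAP1-KO cells for Rpl14 (12.94) and replicate 2 for Ifit1 (2.29). Values of 2.29 to 3.21 are close to the floor and rest on few reads.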

How the results depend on the processing

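Of 166 named genes with a called interaction, none turned sign with a call under any setting run. The replicate block gave 911 called interactions instead of 1319 and 129 of the 166 genes stayed called. Same-numbered samples did not deviate together over all tested rows (correlations between -0.03 and 0.01). That check may miss an effect of the host mouse on part of the rows, and cannot show that the numbers are not pairs. The labels do not state pairs, and the main fit does not use them. Adding an absolute difference of at least 1 left 737 interactions, 1251 tumor and 790 cell calls, 13 rows with opposite effects, 9 ATF4-linked members and 1 ribosomal protein row. An adjusted p under 0.01 left 632, 2131 and 1376 calls, 39 opposite rows and 24 ribosomal protein rows. Without a trend 62 opposite rows and 14 ribosomal protein rows were called, after quantile normalization 23 ribosomal protein rows, and with a mean of at least 25 normalized counts, which tests fewer rows, 26 interferon-inducible members. With the KEAP1-KO tumors of Experiment A, from other mice and the other flank, 2020 interactions were called. The cause of the other changes was not tested. With 1 library left out, 1046 to 1260 interactions, 2983 to 3535 tumor and 1919 to 2589 cell effects, 73 to 103 opposite rows, 15 to 17 ATF4-linked, 32 to 41 ribosomal protein and 31 to 42 interferon-inducible members were called. With 1 library left out the call was also lost for Ccl6 in 14 fits (0.65 to 0.87), Ifi44 in 13 (1.40 to 1.85), Fth1 in 11 (0.31 to 0.44), Hspd1 in 10 (-0.47 to -0.34), Gsr in 8 (-0.48 to -0.34) and Txn1 in 2 (-0.47 to -0.37). With a pseudocount of 0.4, 38 of the 166 calls were lost. In simulated data 37% of interactions of 1 on the log2 scale were recovered, in rows without low counts. Recovery was not examined by depth or level, nor at all for rows with low counts.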

Other observations

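Some gene families were looked at after their values were seen. Of 19 cytosolic tRNA synthetases tested, which charge tRNAs with amino acids, 8 had a lower NRF2 effect in tumors and none a higher one. The share of all rows that were lower was 1.65%. In cells 8 of the synthetases rose, and in tumors 5 fell. Gars was at 11.98, 12.03, 12.01 and 12.09 in KEAP1-KO cells, 12.58, 12.62, 12.63 and 12.68 in DKO cells, 10.99, 11.10, 11.10 and 11.16 in KEAP1-KO tumors and 10.80, 10.97, 10.81 and 10.80 in DKO tumors (retained intron, interaction -0.84, SE 0.07). Its groups overlapped in neither setting. Nars and Aars rose by 0.91 and 0.85 in cells, with tumor effects of -0.02 and 0.00.

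All 4 tested Naip genes, sensors of bacterial flagellin and secretion systems, fell in DKO cells and had a higher effect in tumors. The interaction was higher for 2.22% of all rows. Naip1 was in its gene row at 5.04, 4.92, 5.05 and 4.72 in KEAP1-KO cells, 2, 3.21, 2 and 2 in DKO cells, 5.35, 4.77, 5.34 and 4.91 in KEAP1-KO tumors and 5.51, 4.56, 5.50 and 4.84 in DKO tumors (interaction 2.64, SE 0.41). The tumor groups overlapped. These genes are near-identical copies that may share reads. Mgst1, a microsomal glutathione transferase, was in its gene row at 6.82, 7.03, 6.78 and 7.06 in KEAP1-KO cells, 2.79, 2.34, 2 and 2.28 in DKO cells, 6.21, 6.78, 6.48 and 6.36 in KEAP1-KO tumors and 4.35, 4.03, 4.34 and 3.55 in DKO tumors (interaction 2.18, SE 0.29). The family did not move together: Mgst2 (processed transcript) fell by 1.36 in cells and by 1.26 in tumors (interaction 0.10, adjusted p = 0.89), and Mgst3 (gene row) rose by 0.69 in cells and by 1.81 in tumors (interaction 1.11, adjusted p = 0.0005). The metallothioneins Mt1 and Mt2, which bind zinc and copper, fell further in tumors, with interactions of -0.75 and -1.12.

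Skeletal muscle markers varied among DKO tumors: their summed normalized counts ranged from 84.4 to 1516 in DKO tumors and from 73.8 to 275.8 in KEAP1-KO tumors. The medians of these sums were 921.6 in DKO tumors and 85.7 in KEAP1-KO tumors. By limma 3 of the 6 tested were called higher for the tumor effect and none lower. For the interaction 0 of the 6 were called, and 5 had an unadjusted p under 0.05, all higher.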
